A study of Mus musculus with 4 samples.

Results

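Cells that stained for Oct4 but not for Klf4 were set against each of the other fractions, to find the genes at which this fraction stood outside all the rest. Gene expression had been measured in mouse embryonic fibroblasts (MEFs) during reprogramming, in which introduced transcription factors turn a specialised cell into a pluripotent one. The cells were fixed, permeabilized, stained and sorted, and the RNA of each fraction was amplified and read on 1 Affymetrix array. The arrays are given below in a fixed order, first Oct4-negative, then Oct4+Klf4-negative, next Oct4+Klf4+EpCAM-negative and last Oct4+Klf4+EpCAM+. Per the labels, the first fraction has no stated Klf4 or EpCAM gate and the second no stated EpCAM gate. The day of the sort, the factors introduced, how they were delivered and whether the Oct4-negative cells grew in the same dish are not given in the labels, so a difference between cultures cannot be told apart from a difference between fractions. Each gene was read from 1 probe set, the one whose mean over the 4 arrays was highest. A gene counted as a member when the Oct4+Klf4-negative level lay at least 1 on the log2 scale, which is 2-fold, above or below every other array and the higher levels reached a floor of 4.53, the median of all values. The smallest of the 3 differences ranked it. By this rule 311 of 18193 named genes were members, and 11428 genes reached the floor on at least 1 array.

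Oct4, encoded by Pou5f1, and Klf4 are transcription factors used to induce pluripotency, and EpCAM is an adhesion molecule of epithelial cells that appears on the surface as fibroblasts take on epithelial features during reprogramming. Fibroblasts make a collagen-rich matrix and keep a Hox code, the pattern of homeobox genes that marks their position along the body axis. Among the genes that name the results below, neurofilaments are the intermediate filaments of axons, Eph receptors are tyrosine kinases that read ephrins on neighbouring cells, and retinoic acid binding proteins carry retinoic acid inside the cell.

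Of the 11428 genes, 197 (1.72%) were at least 2-fold above every other array in Oct4+Klf4-negative cells and 114 (0.998%) at least 2-fold below. The values that chose these genes are given as a description, and with 1 array per fraction no difference has a replicate check. The small number of arrays limits the precision of every value. Counted the same way, the Oct4-negative array had 332 genes above (2.91%) and 136 below (1.19%) all others, and the Oct4+Klf4+EpCAM+ array 287 above (2.51%) and 134 below (1.17%). The Oct4+Klf4+EpCAM-negative array had 33 above (0.289%) and 8 below (0.07%). The Oct4+Klf4-negative fraction therefore stood apart from the rest at more genes than the EpCAM-negative fraction and at fewer than the fractions at the ends of the series. By any amount, it was the highest array at 2860 genes (25%) and the lowest at 2995 (26.2%).

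**Figure D1:**
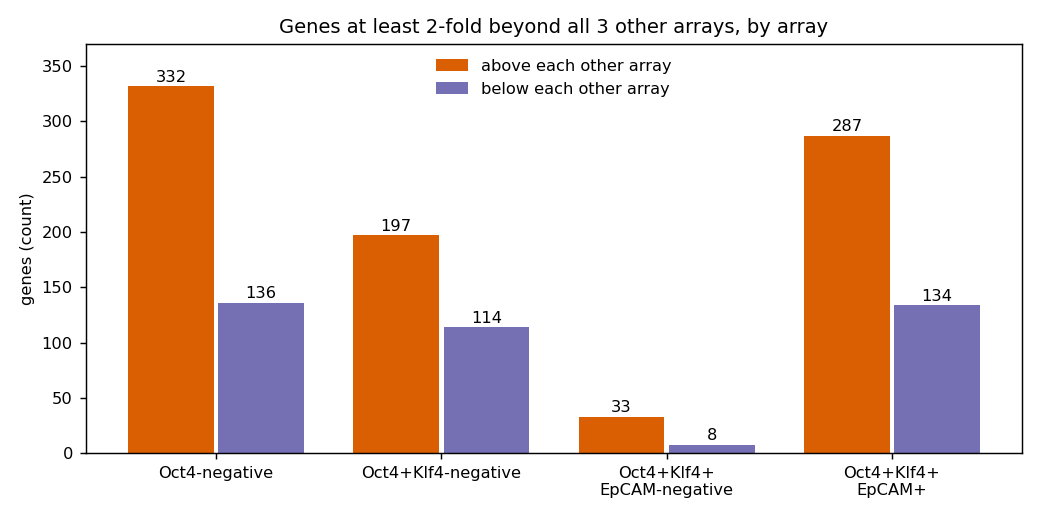
Number of genes (vertical axis) at least 2-fold above (orange) or below (purple) all 3 other arrays, for each of the 4 arrays in turn on the horizontal axis. The Oct4+Klf4-negative array has 197 above and 114 below, between the 33 and 8 of the EpCAM-negative array and the 332 and 136 of the Oct4-negative array.

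The arrays were alike in scale, with medians of 4.55, 4.54, 4.52 and 4.49 and between 75.8% and 76.7% of genes above 2.94, the ceiling reached by 27 control probe sets for bacterial transcripts. That ceiling stands for readings with no matching transcript, and a fold against a level at or below it is given as "at least". The 3′ probe set of Gapdh exceeded its 5′ probe set by 1.04, 1.30, 1.04 and 0.97 on the log2 scale, most in Oct4+Klf4-negative cells, while the same difference for Actb lay between -0.05 and -0.07 on all 4. The part of RNA integrity in the results below was not tested. Probe sets of 1 gene gave differences that scattered with a median SD of 0.167, 0.172 and 0.200 against the Oct4-negative, EpCAM-negative and EpCAM+ arrays, a gauge that leaves out variation between cultures or sorts. Of the stained factors, Pou5f1 had levels of 7.59, 11.48, 11.66 and 11.70, so the Oct4+Klf4-negative array lay with the other Oct4-positive arrays. Klf4 was itself among the 114 genes below, at 7.32, 6.24, 10.20 and 10.60, but its other probe set ran 6.95, 5.69, 2.67 and 3.20, higher here than in both Klf4-positive arrays. Epcam was at 4.63, 5.20, 6.54 and 9.52. The sort on Klf4 is thus seen at 1 of the 2 Klf4 probe sets.

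Promoters of the leading neural genes that the reference holds are shown first, because neural genes were the largest functional group among the genes above, 21 of 197 as counted below. They are the 250 bases before the annotated start, from RefSeq on GRCm38.p6, each read along its gene from 5′ to 3′, with capitals marking a match to one of the motifs named next.
Epha5, chr5:84417383-84417632, minus strand: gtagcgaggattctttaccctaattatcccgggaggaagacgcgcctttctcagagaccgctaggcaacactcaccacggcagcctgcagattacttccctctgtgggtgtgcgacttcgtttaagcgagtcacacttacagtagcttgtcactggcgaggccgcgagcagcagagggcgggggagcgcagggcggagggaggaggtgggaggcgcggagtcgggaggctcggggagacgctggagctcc
Negr1, chr3:156561544-156561793, plus strand: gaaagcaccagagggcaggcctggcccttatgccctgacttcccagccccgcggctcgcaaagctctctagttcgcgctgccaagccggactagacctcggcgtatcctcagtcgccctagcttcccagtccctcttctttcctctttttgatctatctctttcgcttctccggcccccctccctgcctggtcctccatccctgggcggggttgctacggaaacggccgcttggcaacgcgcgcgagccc
Epha3, chr16:63864176-63864425, minus strand: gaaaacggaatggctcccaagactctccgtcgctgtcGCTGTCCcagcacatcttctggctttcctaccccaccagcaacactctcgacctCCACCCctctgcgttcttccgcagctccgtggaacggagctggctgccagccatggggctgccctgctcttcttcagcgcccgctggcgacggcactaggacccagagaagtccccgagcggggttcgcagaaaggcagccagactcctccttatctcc
These sequences were searched on both strands for the Oct4 octamer ATGCAAAT, the CACCC boxes CCACCC and CCACACCC, the TATA box TATAAA, parts of the site of the neuronal repressor REST (TTCAGCACC and GGACAGC), and the CCAAT box CCAAT. Epha5 and Negr1 held none of them in this stretch, and Epha3 held GGACAGC on the minus strand, read here as GCTGTCC, and CCACCC. Over 300-base windows, which add 50 bases after the start, GGACAGC was present in 4 of 23 promoters of the neural genes above (17.4%), in 8.73% of the 229 promoters of all genes above and in 7.68% of the 11889 promoters of genes reaching the floor. The octamer was in 0 of the 23 and in 1.22% of the 11889. A match is a description of the letters and not a site.

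Neural genes were counted over 7 lists, which cover cytoskeleton and growth cone, RNA-binding proteins, transcription factors, synapse proteins, adhesion molecules, axon guidance, and ion channels with transmitter receptors. Of 361 such genes on the array, 148 reached the floor, and 21 of those (14.2%) were above every other array, against 1.72% of all genes. Below were 2 (1.35%), near the 0.998% of all genes. By any amount this array was the highest at 54 (36.5%, against 25%) and the lowest at 30 (20.3%, against 26.2%). Genes that reached the floor on the Oct4+Klf4-negative array alone, such as Nefm and Negr1, are in the 148 only because this array was high. A gene below needed every other array at the floor, so the counts above and below are not like for like. The medians over the 148 were small, 0.11, 0.12 and 0.22 from the Oct4-negative, EpCAM-negative and EpCAM+ arrays, against 0.02, -0.04 and -0.04 over all genes. So a minority of neural genes was far above, and most were not. The lists were drawn up with earlier results of these arrays known, so their counts are no independent evidence. In bulk RNA, fewer cells that express a gene and less RNA per cell cannot be told apart.

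**Figure D2:**
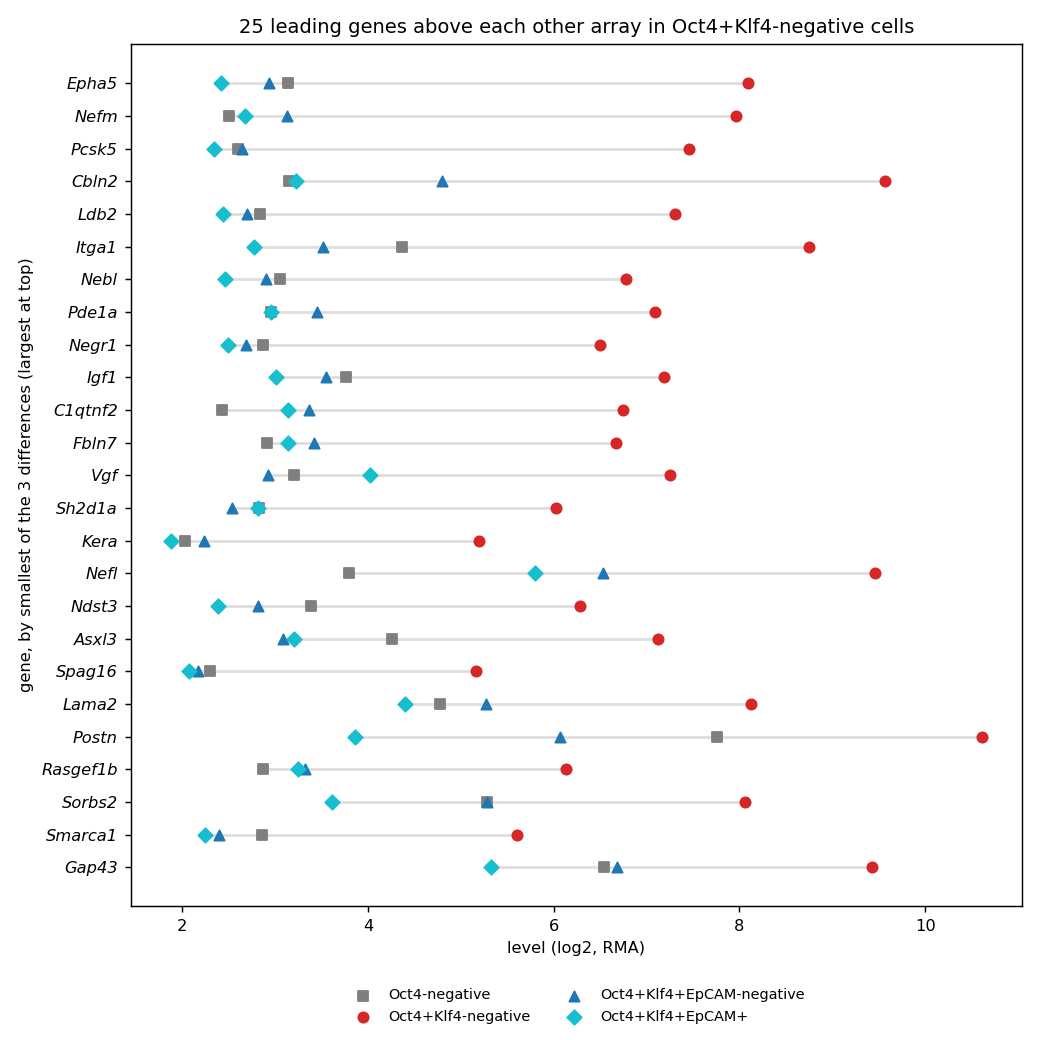
Levels on the log2 scale (horizontal axis) of the 25 leading genes above every other array, ordered by the smallest of the 3 differences with the largest at the top, with 1 symbol per array. The red points of the Oct4+Klf4-negative array lie apart on the right, from 4.95 beyond the nearest array for Epha5 to 2.75 for Gap43, and for most genes the other 3 arrays sit together at low levels.

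The neurofilament genes were among the leading ones. Nefm, which encodes the medium neurofilament chain, had levels of 2.51, 7.97, 3.13 and 2.68. It reached the floor on the Oct4+Klf4-negative array alone, 28.6-fold above the EpCAM-negative array, the nearest. Nefl, the light chain, had levels of 3.80, 9.46, 6.53 and 5.80. Here the Klf4-positive arrays kept intermediate levels, and the distance to the nearest was 7.62-fold. Nefl and Nefm are neighbours on chromosome 14, while the heavy chain gene Nefh was low here, at 2.83, 2.81, 4.53 and 4.69. Gap43, a protein of the growth cone, ran 6.55, 9.43, 6.68 and 5.33, which is 6.73-fold above the nearest array, and Map2, a microtubule-associated protein of dendrites, ran 8.64, 10.36, 8.43 and 8.18, 3.30-fold above it. All 3 other probe sets of Map2 that reached the floor stood 2-fold above as well.

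Other markers of neurons did not share this pattern. Tubb3, the neuronal beta-tubulin, was at 4.83, 4.53, 8.84 and 9.71, so it was high in both Klf4-positive arrays and lowest here. Crmp1, a collapsin response mediator, was at 3.10, 3.62, 8.12 and 8.29, and Stmn2, a microtubule regulator of growing axons, at 5.24, 6.93, 11.17 and 10.98. Dcx, a marker of migrating young neurons, lay between 2.82 and 2.95 on all arrays, below the floor. Of the 16 cytoskeleton and growth cone genes reaching the floor, 4 (25%, against 1.72% of all genes) were above every other array and 0 below. The median differences of the 16 were 0.37, -0.26 and 0.07. The summed linear level of that list was 3036, 6204, 7093 and 6327, so as a whole the list was not highest in the Oct4+Klf4-negative array. Of the RNA-binding proteins, Elavl4 was 2.56-fold above the nearest array (3.43, 4.94, 3.34 and 3.58), whereas its relative Elavl2 was similarly high in all 3 Oct4-positive arrays (3.02, 8.54, 8.79 and 8.73). Markers of neural progenitors and glia gave 0 genes above and 0 below of 11.

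Receptors and ligands of axon guidance contributed 4 of 51 genes above (7.84%, against 1.72% of all genes) and 0 below. By any amount this array was the highest at 17 (33.3%, against 25%) and the lowest at 10 (19.6%, against 26.2%). Epha5, an ephrin-A receptor, led all genes, with levels of 3.14, 8.09, 2.93 and 2.42 and a 30.9-fold distance to the Oct4-negative array. Its other 3 probe sets reaching the floor were also 2-fold above all arrays. Epha3, a receptor of the same subfamily, ran 4.43, 6.87, 3.43 and 2.91, 5.43-fold above the nearest, and Epha7 ran 4.82, 6.51, 5.44 and 4.67, 2.10-fold above. Of the other probe sets reaching the floor, all 3 of Epha3 were likewise 2-fold above, and both of Epha7 were above but 1 by less than 2-fold. Sema3d, a secreted semaphorin, was at 3.14, 5.33, 2.53 and 2.29, 4.57-fold above.

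Adhesion molecules of the nervous system had the largest share of any of the 7 lists, with 4 of 12 above (33.3%, against 1.72% of all genes) and 0 below. Negr1, a membrane-anchored immunoglobulin protein of neurons, had levels of 2.87, 6.49, 2.68 and 2.49, at least 11.7-fold above every other array, all 3 of which read at background. Cadm1 had levels of 6.58, 8.93, 6.99 and 6.82, 3.85-fold above the nearest. Ncam1, the neural cell adhesion molecule, ran 6.71, 8.83, 7.71 and 5.30, and its 5 other probe sets reaching the floor were all 2-fold above too. Chl1, another adhesion molecule of the list, ran 5.26, 7.85, 6.69 and 5.56, so for both Ncam1 and Chl1 the EpCAM-negative array came second. The median differences of the list were 1.13, 0.01 and 0.43, which places it above the Oct4-negative array and near the EpCAM-negative one.

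Synapse proteins, channels and regulators supplied the remainder. Of synapse genes reaching the floor, 2 of 18 were above (11.1%, against 1.72% of all genes) and 1 below (5.56%, against 0.998%). Of neuronal transcription factors, 2 of 8 were above (25%) and 0 below. Cbln2, a secreted synapse organizer, had levels of 3.14, 9.56, 4.79 and 3.23, with a distance of 27.3-fold to the EpCAM-negative array. Syt11, a synaptotagmin of membrane traffic, ran 6.51, 7.59, 6.11 and 5.67, 2.11-fold above, and Nptx1, a secreted pentraxin, went the other way at 4.87, 3.24, 7.18 and 8.46. Among channel genes the pore subunit Kcnma1 of the large calcium-activated potassium channel (3.20, 4.56, 3.45 and 2.87) and its accessory subunit Kcnmb4 (3.43, 4.66, 3.52 and 3.65) were both above, by 2.16-fold and 2.02-fold. Both lay close to the floor. Channel and transmitter receptor genes gave 4 of 36 above (11.1%, against 1.72% of all genes) and 1 below (2.78%, against 0.998%). By any amount this array was the highest at 10 (27.8%, against 25%) and the lowest at 11 (30.6%, against 26.2%). The medians of that list were -0.03, 0.01 and -0.06, so as a whole it was not raised here. Cacnb4, a calcium channel subunit, was at 2.33, 4.71, 1.85 and 2.10, at least 3.41-fold above, and Gabrb2, a GABA receptor subunit, at 2.81, 4.91, 3.90 and 3.42, 2.01-fold above. Of the transcriptional regulators, Ldb2, a cofactor that binds LIM-domain proteins, ran 2.83, 7.30, 2.69 and 2.44, at least 20.6-fold above, and Ebf1 ran 5.47, 6.75, 3.64 and 4.11, 2.42-fold above.

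Of the Hox genes reaching the floor, the Oct4+Klf4-negative array was the highest at 5 of 5 in the B cluster, 5 of 6 in the C cluster, 4 of 6 in the D cluster and 1 of 7 in the A cluster. Of 26 genes of the list reaching the floor, which includes the partner genes Meis2 and Pbx3, 6 (23.1%, against 1.72% of all genes) were 2-fold above every other array and 0 below. This array was the highest by any amount at 16 (61.5%, against 25% of all genes). Median differences were 0.45, 0.67 and 1.01 from the Oct4-negative, EpCAM-negative and EpCAM+ arrays. They kept their sign when the arrays were centred or quantile-normalized again. Centring moved the median difference of all genes from the EpCAM+ array only from -0.04 to 0.08, so the signs were all but fixed in advance. Hoxb5 had levels of 4.03, 6.71, 4.86 and 3.71, which is 3.59-fold above the nearest array, and its neighbour Hoxb6 levels of 3.62, 6.37, 5.02 and 3.86, 2.54-fold above. Hoxb9 followed with 4.06, 5.75, 4.57 and 3.58. In each of these the EpCAM-negative array came second. The other 3 were Hoxc5 (5.10, 6.14, 4.98 and 4.81), Hoxc8 (4.75, 6.56, 5.54 and 4.23) and Hoxd8 (4.72, 6.97, 5.90 and 5.30), at 2.07-fold, 2.02-fold and 2.10-fold. Hoxc4, Hoxc9 and Hoxc10 were highest here as well, by 0.51, 0.90 and 0.54, short of the 2-fold size.

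None of the A cluster genes was 2-fold above. Hoxa13, expressed at the end of the limb and body axis, had levels of 5.54, 4.70, 3.35 and 3.04, with the Oct4-negative array highest. Hoxa11 (6.39, 5.78, 4.99 and 5.15) and Hoxa3 (6.84, 6.05, 5.83 and 5.36) had the same order at the top, while Hoxa9 was close to equal (7.35, 7.47, 7.43 and 7.43). Hoxd13 stood at 8.11, 7.90, 6.90 and 6.65, again highest in Oct4-negative cells. Unnamed by the gene lists but members all the same were Hoxb5os and Hoxd3os1, antisense genes next to Hoxb6 and Hoxd8 on chromosomes 11 and 2. They were named after their values were seen, and whether their probe sets also read the sense transcripts was not tested. With the floor raised to 6.87, the 75th percentile of all values, 1 Hox gene stayed above, since most of these genes are of modest level.

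**Figure D3:**
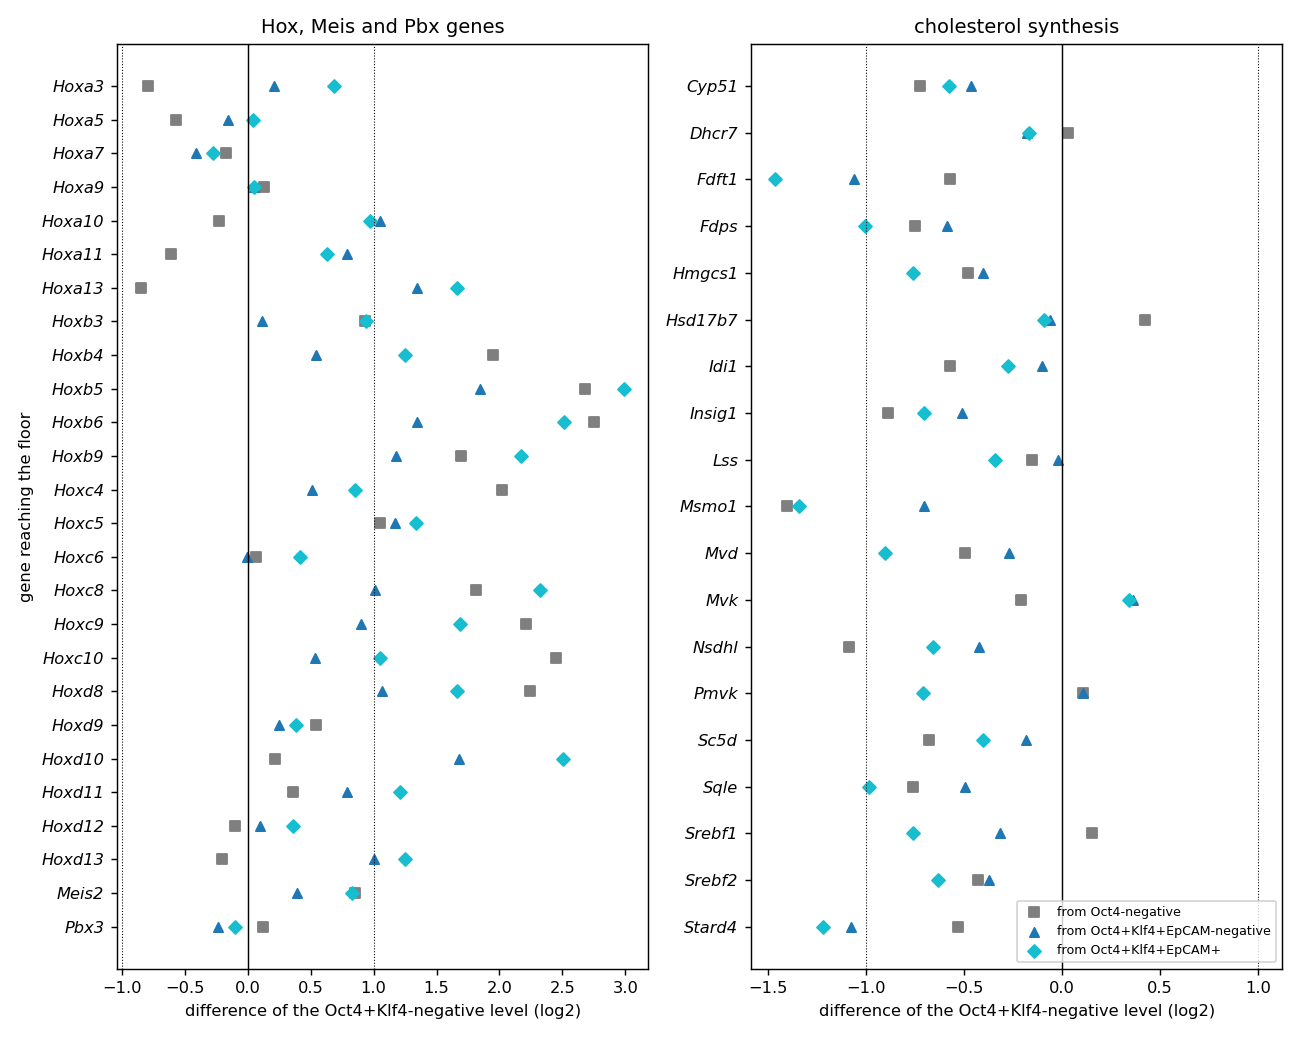
Difference of the Oct4+Klf4-negative level from each other array on the log2 scale (horizontal axes) for the Hox, Meis and Pbx genes (left) and genes of cholesterol synthesis (right) that reached the floor, with dotted lines at 2-fold. Most B, C and D cluster genes from Hoxb4 to Hoxd8 lie to the right of 0 for all 3 arrays, of the 7 A cluster genes only 1 does, and 14 of 19 cholesterol genes lie to the left for all 3 (13 when the arrays are centred or quantile-normalized again).

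Genes of the extracellular matrix went both ways within the fraction. Of 36 fibroblast matrix genes reaching the floor, 5 were above every other array (13.9%, against 1.72% of all genes) and 3 below (8.33%, against 0.998%). By any amount this array was the highest at 9 (25%, the same share as over all genes) and the lowest at 4 (11.1%, against 26.2%). The medians of -0.81, 1.43 and 2.80 place the list as a whole between the Oct4-negative array and the Klf4-positive arrays. Its summed linear level was 31572, 19795, 9057 and 5527. The genes above were therefore exceptions in a list that was mostly highest in Oct4-negative cells, such as Col1a1 at 11.33, 8.06, 6.15 and 5.26. Postn, which encodes the matrix protein periostin, had levels of 7.76, 10.61, 6.07 and 3.86 and stood 7.22-fold above the Oct4-negative array. Thy1, a surface glycoprotein of fibroblasts, ran 8.38, 9.81, 6.57 and 5.30, and Thbs1, thrombospondin 1, ran 8.17, 9.31, 5.52 and 4.09. The network collagen gene Col8a1 was at 8.53, 9.96, 5.92 and 4.55 and fibulin 5, Fbln5, at 7.16, 8.16, 5.04 and 3.78. All 5 shared one order, with the Oct4-negative array second and the EpCAM+ array last.

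The matrix genes below were another kind. Col6a1 and Col6a3, chains of the microfibrillar collagen VI, had levels of 9.30, 5.41, 6.56 and 6.50 and of 6.93, 3.50, 6.66 and 4.95. The third chain gene of the list, Col6a2, ran 8.88, 5.24, 4.81 and 5.26, low here but not lowest. S100a4, a calcium-binding protein used as a fibroblast marker, ran 11.51, 8.91, 10.35 and 10.21 and was lower here than in all others by 2.46-fold or more. Col11a1 (6.04, 7.05, 2.55 and 2.68) and Col27a1 (4.59, 5.80, 3.44 and 2.61), collagens of cartilage, were above. In all, 3 of 23 collagens were above (13.0%, against 1.72% of all genes) and 2 below (8.70%, against 0.998%).

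Receptors that hold cells to the matrix also differed. Itga1, the alpha 1 integrin that binds collagen and laminin, had levels of 4.37, 8.75, 3.52 and 2.77, 20.8-fold above the Oct4-negative array, and Itga8 had 6.68, 9.38, 5.06 and 3.82, 6.51-fold above it. Itgb3, the beta 3 chain, was below at 4.59, 3.46, 5.39 and 6.38. Lama2, the laminin alpha 2 chain, ran 4.77, 8.12, 5.27 and 4.40, 7.24-fold above the nearest. It was the only member among 12 laminin and basement membrane genes (8.33%, against 1.72% of all genes). Of secreted enzymes, Pcsk5, a convertase that cleaves precursor proteins, was at 2.60, 7.45, 2.64 and 2.34, at least 22.8-fold above all 3 others, which read at background. Adamts9 (3.33, 5.22, 3.16 and 3.29), Mmp11 (5.70, 6.90, 5.38 and 4.36) and Htra1 (8.52, 9.69, 7.33 and 6.34), proteases of the matrix, were 3.69-fold, 2.30-fold and 2.25-fold above.

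Of signalling genes, 2 of 15 in the insulin-like growth factor system (13.3%) and 2 of 33 in Wnt signalling (6.06%) were above all arrays. FGF signalling had 1 of 21 above (4.76%) and TGF-beta signalling 0 of 42, against 1.72% of all genes. In the same order of lists 0, 1 (3.03%), 1 (4.76%) and 2 (4.76%) were below, against 0.998%. Igf1, insulin-like growth factor 1, had levels of 3.76, 7.18, 3.55 and 3.01, which is 10.7-fold above the Oct4-negative array. Rspo3, a secreted enhancer of Wnt signalling, ran 4.95, 7.13, 2.76 and 2.77, and Sfrp4, a secreted Wnt-binding protein, ran 3.46, 5.56, 3.71 and 3.31. Fgf13, an intracellular member of the FGF family, ran 3.96, 8.58, 7.02 and 6.05, so that it was high in every Oct4-positive array and highest here. Ptx3, a pentraxin of acute inflammation, was 5.16-fold above at 7.33, 9.70, 4.51 and 3.66, while Ptgs2, the inducible cyclooxygenase, was below at 7.40, 4.91, 6.61 and 6.81. Of mesenchymal regulators, Zeb2, a repressor of epithelial genes, ran 6.21, 8.13, 5.24 and 2.25, Nr2f1 ran 5.80, 7.44, 5.70 and 5.70, and Shox2 ran 4.64, 6.06, 4.60 and 2.87. These were 3 of 35 such genes (8.57%, against 1.72% of all genes), and 1, Foxc2, was below (2.86%, against 0.998%).

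The remaining leading genes above belong to no single process. Nebl, an actin-binding nebulette, had levels of 3.05, 6.77, 2.90 and 2.46, and Pde1a, a calmodulin-dependent phosphodiesterase, had 2.96, 7.09, 3.45 and 2.96. C1qtnf2 (2.43, 6.75, 3.36 and 3.13) and Fbln7 (2.91, 6.67, 3.42 and 3.14), both secreted proteins, were 10.5-fold and 9.51-fold above, and Vgf (3.20, 7.25, 2.92 and 4.02), a precursor of secreted neuropeptides, 9.38-fold. None of the 5 reached the floor on another array. Sh2d1a, an adaptor of lymphocyte receptors, was at 2.83, 6.02, 2.53 and 2.81, Kera, a corneal proteoglycan, at 2.03, 5.20, 2.23 and 1.88, and Spag16, an axoneme protein, at 2.30, 5.16, 2.17 and 2.07. These 3 are at least 8.47-fold, 4.77-fold and 4.65-fold above, though for Spag16 the mean of its probe sets gives a difference of 0.85, short of 2-fold. Ndst3 (3.38, 6.29, 2.82 and 2.39), which modifies heparan sulfate, Asxl3 (4.25, 7.12, 3.08 and 3.20) and Smarca1 (2.86, 5.61, 2.40 and 2.24), both chromatin factors, were 7.47-fold, 7.31-fold and at least 6.36-fold above. Sorbs2, an adaptor at actin filaments, ran 5.28, 8.06, 5.28 and 3.61, and Rasgef1b, an exchange factor for Ras-family proteins, 2.87, 6.13, 3.33 and 3.24.

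Over all 197 genes above, the median smallest difference was 1.47, and 60 genes were at least 4-fold and 16 at least 8-fold above the nearest array. The nearest array was Oct4-negative for 112, EpCAM-negative for 70 and EpCAM+ for 15. At 112 genes the 3 other arrays lay within 2-fold of each other, and at 75 none of them reached the floor, so these genes reached it on the Oct4+Klf4-negative array alone. For 80 genes another probe set reached the floor, and for 79 of them every such probe set was on the same side, for 54 by 2-fold too. The size rule was not a natural break, since Fbln5 was just inside at 1.003 and Rims1, a synaptic scaffold gene at 4.52, 5.52, 2.53 and 2.82, just outside at 0.9990. Several members are neighbours among the array's genes in RefSeq order, chosen here after their values were seen: C1ra with C1s1, proteases that start the complement cascade, on chromosome 6, and Crnde with Irx5 on chromosome 8.

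**Figure D4:**
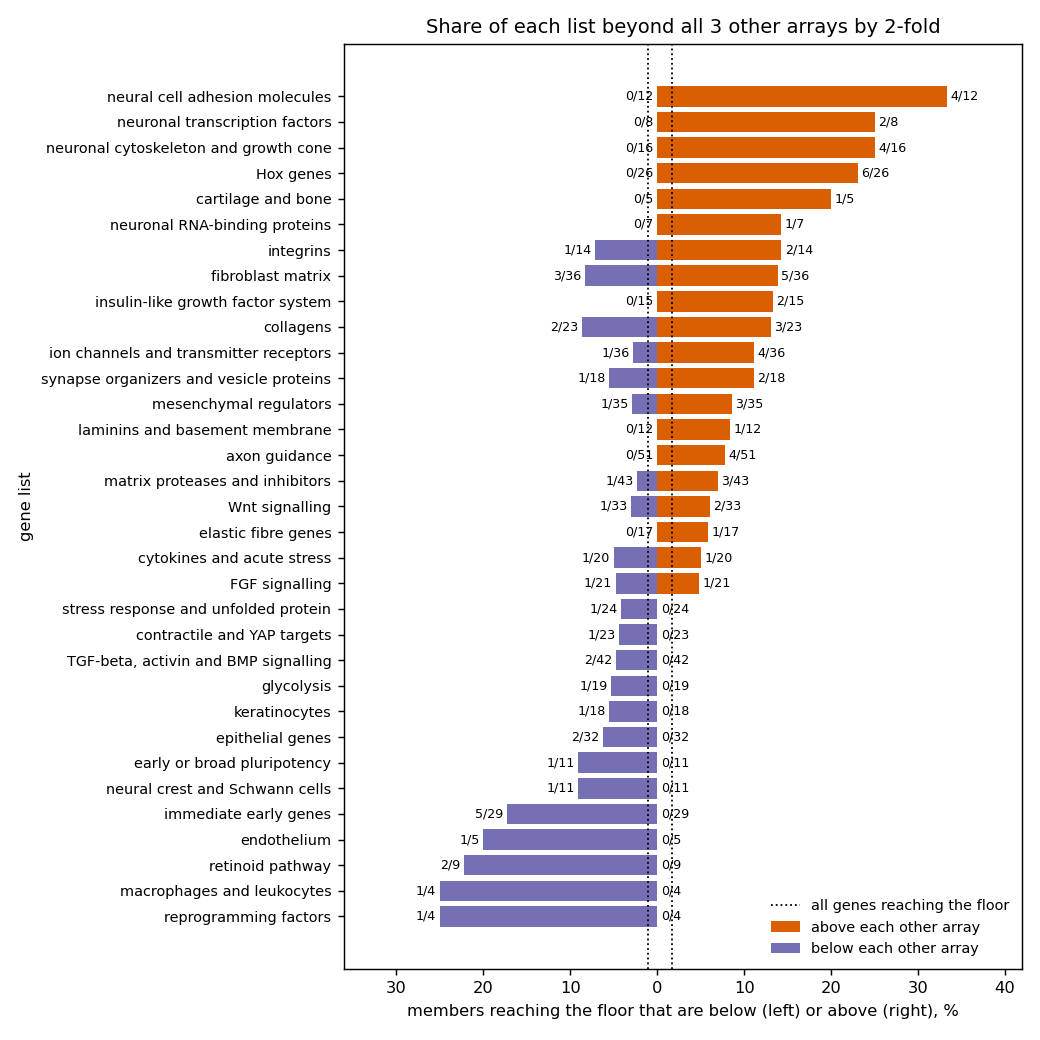
Share of each gene list's members reaching the floor that were 2-fold above (orange, right) or below (purple, left) every other array, in percent, with the counts beside the bars and dotted lines at the share of all genes. Only lists with at least 1 such member are drawn. The largest share above is 4 of 12 neural adhesion molecules. The largest shares below are 1 of 4 reprogramming factors and 1 of 4 macrophage and leukocyte markers. Among lists with at least 2 genes below they are 2 of 9 retinoid genes and 5 of 29 immediate early genes.

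Below every other array, retinoid genes and immediate early genes had the largest shares among lists with at least 2 genes below. Of 9 retinoid pathway genes reaching the floor, 2 (22.2%, against 0.998% of all genes) were 2-fold below. By any amount 6 were lowest (66.7%, against 26.2%), and the medians were -0.63, -0.93 and -0.92. Crabp1, which binds retinoic acid in the cytoplasm, had levels of 10.79, 7.26, 9.92 and 10.40. This was 6.33-fold below the EpCAM-negative array, while the other 3 arrays lay within 2-fold of each other. Crabp2, which delivers retinoic acid to its nuclear receptor, had levels of 10.03, 7.15, 8.26 and 8.31, 2.16-fold below. The receptor genes were nearer together, with Rara at 7.61, 6.68, 6.76 and 7.50 and Rarg at 7.99, 7.42, 8.35 and 8.58. The enzyme gene Dhrs3, at 4.49, 4.40, 5.96 and 7.05, was close to the Oct4-negative array and lower than both Klf4-positive arrays.

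Immediate early genes, which respond to signals and stress within minutes, gave 5 of 29 below (17.2%, against 0.998% of all genes) and 0 above, and 14 were lowest here (48.3%, against 26.2%). Klf10, a zinc-finger gene, ran 8.43, 6.999, 8.92 and 8.95, and Nr4a1, an orphan nuclear receptor, ran 6.31, 5.30, 7.65 and 8.28. Gadd45b, a stress sensor, ran 7.15, 6.10, 7.25 and 7.60, 2.07-fold below the nearest array. The heat shock genes Hspa1a (6.01, 4.44, 6.72 and 7.78) and Hspa1b (8.60, 6.92, 8.69 and 9.65) are neighbours on chromosome 17 and near-identical copies, so their probe sets may read both and they count as uncertain. Fos (8.37, 8.49, 7.01 and 5.79) and Egr1 (10.26, 10.09, 9.26 and 8.30) were not low in this fraction. The medians of the list were -0.88, -0.15 and -0.41, so the list as a whole was lower than in the Oct4-negative array and nearer to the Klf4-positive ones.

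**Figure D5:**
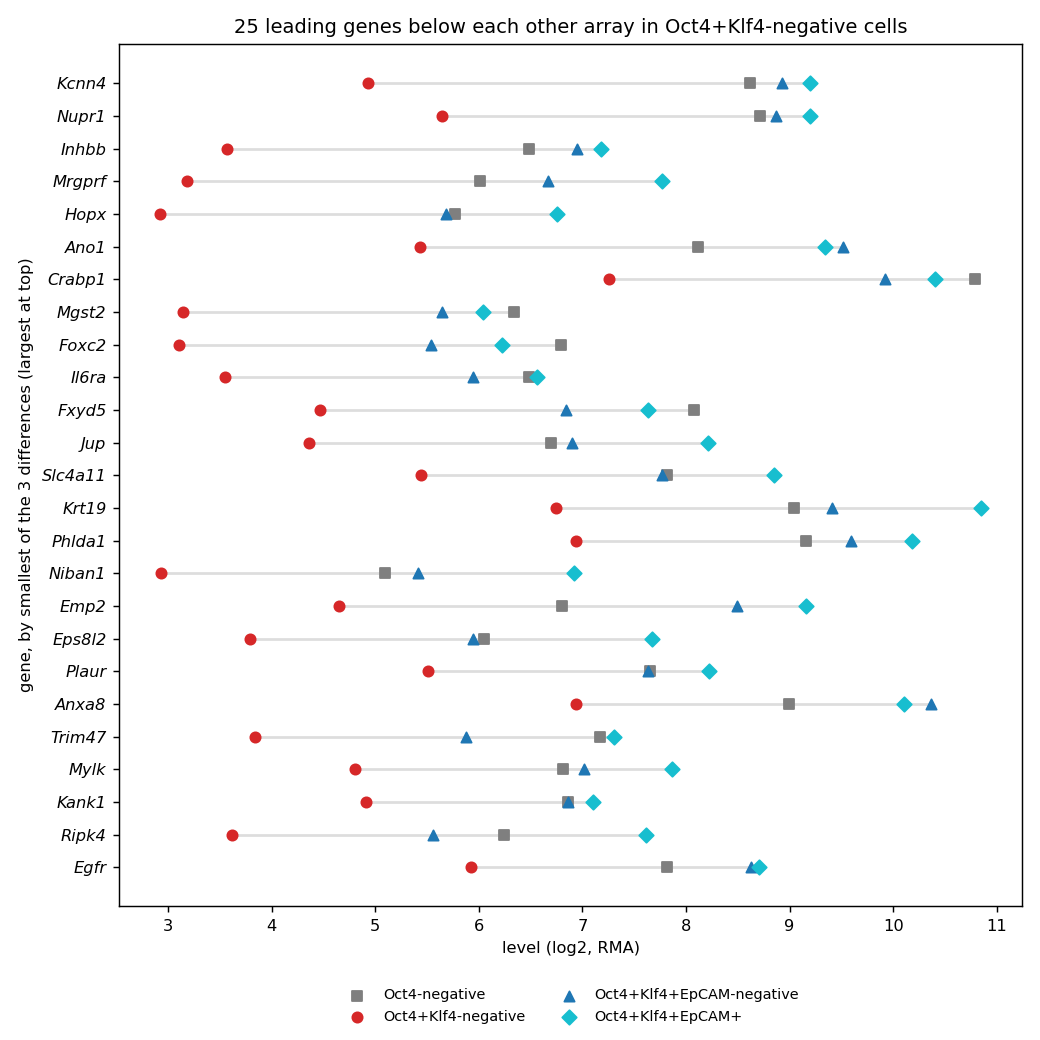
Levels on the log2 scale (horizontal axis) of the 25 leading genes below every other array, ordered by the smallest of the 3 differences with the largest at the top, with 1 symbol per array. The red points of the Oct4+Klf4-negative array lie apart on the left, from 3.69 below the nearest array for Kcnn4 to 1.89 for Egfr.

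The gene furthest below was Kcnn4. This gene, which encodes the intermediate-conductance calcium-activated potassium channel, had levels of 8.62, 4.93, 8.93 and 9.19. The other 3 arrays were close together, and this one was 12.9-fold below the nearest, the largest such distance. Ano1, a calcium-activated chloride channel, ran 8.11, 5.43, 9.52 and 9.34, 6.39-fold below. In both genes another probe set reaching the floor was also 2-fold below all 3 arrays. Nupr1, a stress-induced nuclear protein, ran 8.72, 5.64, 8.87 and 9.19, 8.42-fold below.

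Ligands and receptors followed. Inhbb, the beta B subunit of activin and inhibin, had levels of 6.48, 3.57, 6.94 and 7.18, 7.53-fold below the nearest, and Id1, a target of BMP signalling, had 7.15, 5.83, 8.32 and 8.21. These were the 2 members among 42 TGF-beta, activin and BMP genes (4.76%, against 0.998% of all genes), none of which was above. Il6ra, the interleukin 6 receptor, ran 6.48, 3.55, 5.95 and 6.56, and Mrgprf, an orphan receptor, ran 6.01, 3.18, 6.67 and 7.77. Egfr, the receptor of epidermal growth factor, ran 7.81, 5.92, 8.62 and 8.71, with all 5 of its other probe sets that reached the floor below and 4 of them by 2-fold. Plaur, the urokinase receptor, ran 7.65, 5.51, 7.63 and 8.22, and Spry4, an inhibitor of receptor tyrosine kinase signalling, ran 5.49, 4.33, 6.46 and 6.44. Nkd2, an inhibitor of Wnt signalling, was at 6.20, 4.84, 6.39 and 6.70.

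Krt19, a keratin of simple epithelia, had levels of 9.04, 6.74, 9.41 and 10.85, and Jup, plakoglobin of junctions, had 6.70, 4.36, 6.90 and 8.22. These were the 2 members among 32 epithelial genes (6.25%, against 0.998% of all genes). Of the 32, 11 were lowest here (34.4%, against 26.2% of all genes). The list's medians of 0.08, -1.29 and -3.61 show that the rest differed little from the Oct4-negative array. Ripk4, a kinase of epidermal differentiation, ran 6.24, 3.62, 5.56 and 7.61, Eps8l2, an actin regulator, ran 6.05, 3.79, 5.94 and 7.67, and Sprr1a, a protein of the cornified envelope, ran 5.65, 4.18, 5.74 and 7.97. Mylk, myosin light chain kinase, was at 6.81, 4.80, 7.01 and 7.87. It was the 1 member below of 23 contractile genes (4.35%, against 0.998% of all genes). Kank1, an adaptor at focal adhesions, was at 6.86, 4.91, 6.86 and 7.10. Anxa8, an annexin, ran 8.998, 6.93, 10.36 and 10.10, and Emp2, a tetraspan membrane protein, ran 6.80, 4.65, 8.49 and 9.16.

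Transcription factors below were Foxc2 (6.79, 3.11, 5.54 and 6.22), a forkhead regulator of mesenchyme, and Hopx (5.77, 2.92, 5.68 and 6.75), an atypical homeodomain protein. Hopx read at background here, at least 6.67-fold below the others, and Foxc2 was 5.40-fold below. Tfap2a, active in neural crest and epidermis, ran 6.61, 5.30, 6.61 and 6.71, nearly equal on the other 3 arrays. Metabolic and membrane genes were Mgst2 (6.34, 3.14, 5.65 and 6.04), a glutathione transferase, Slc4a11 (7.82, 5.44, 7.77 and 8.84), an ion transporter, Fxyd5 (8.07, 4.46, 6.84 and 7.64), a regulator of the sodium pump, and Slc2a3 (6.32, 4.58, 6.18 and 6.56), a glucose transporter. They lay 5.67-fold, 5.02-fold, 5.21-fold and 3.03-fold below the nearest array. Phlda1 (9.16, 6.94, 9.60 and 10.18), Niban1 (5.09, 2.93, 5.42 and 6.92) and Trim47 (7.17, 3.84, 5.88 and 7.31) complete the 25 leading genes.

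Genes of cholesterol synthesis were lowest in Oct4+Klf4-negative cells at 14 of 19 (73.7%, against 26.2% of all genes), although none was below by 2-fold, and at 13 when the arrays were centred or quantile-normalized again. The median differences were -0.53, -0.37 and -0.70. Msmo1, a sterol oxidase, had levels of 7.80, 6.40, 7.10 and 7.74, Sqle, squalene epoxidase, 8.09, 7.33, 7.83 and 8.32, and Fdft1, squalene synthase, 8.96, 8.39, 9.45 and 9.86. The regulator genes Insig1 (8.83, 7.95, 8.46 and 8.65) and Srebf2 (8.61, 8.18, 8.55 and 8.81) had the same order at the bottom. Hsd17b7 (7.27, 7.69, 7.75 and 7.78) did not. Ribosomal protein genes and housekeeping genes, read as a check, had 0 of 46 and 0 of 15 members in either direction at 2-fold. By any amount this array was the lowest at 5 of the 46 (10.9%) and 3 of the 15 (20%), and the highest at 20 (43.5%) and 6 (40%), against 26.2% and 25% of all genes.

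Over all 114 genes below, the median smallest difference was 1.45, 23 genes were at least 4-fold and 3 at least 8-fold below the nearest array. The nearest was Oct4-negative for 70, EpCAM-negative for 33 and EpCAM+ for 11. For 51 genes the other 3 arrays lay within 2-fold of each other, and 47 were under the floor here while all others reached it. Of 48 genes with another probe set reaching the floor, 46 had every such probe set on the same side and 18 by 2-fold, and Klf4 was the only one with a probe set going the opposite way by at least 0.5. Just inside the size rule was Acsl4 at 1.01 and just outside Tnfaip2 at 0.9978.

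Promoters of the genes below held a long CACCC box more often than others, by count. CACCC boxes are bound by Klf family factors. CCACACCC, on either strand, was in 12 of the 96 promoters of genes below (12.5%), in 3 of the 229 of genes above (1.31%), in 3.86% of those of genes reaching the floor and in 3.56% of all 32851. The shorter CCACCC was in 36.5%, 34.1%, 37.5% and 31.5%, which are nearer together, and the median GC content was 60.7%, 56.7%, 61.0% and 52.7%. The 12 promoters came from 12 genes of the 80 below with a promoter in the reference. They are shown, except for Dgka, whose match lies after the start, because this motif, of the 7 searched, differed most in percentage points from genes reaching the floor, and they were chosen after the counts were seen. Each line gives the box in capitals with 10 bases on either side, read 5′ to 3′ along the strand that spells it, from RefSeq on GRCm38.p6.
Kcnn4, chr7:24370037-24370064, minus strand: aaaacccccaCCACACCCagacaccaca
Hspa1b, chr17:34959460-34959487, minus strand: cagcacttccCCACACCCtccccctcag
Hspa1a, chr17:34972378-34972405, minus strand: cagcacttccCCACACCCtccccctcag
Card10, chr15:78803155-78803182, plus strand: acgcgcgcgcCCACACCCcgcgcgccac
Klrg2, chr6:38637270-38637297, plus strand: tatggattggCCACACCCtcggaactcc
Nabp1, chr1:51478575-51478602, plus strand: ggtctctcggCCACACCCtcctcccgct
Rtkn, chr6:83141999-83142026, minus strand: gcatctctctCCACACCCattagcacag
Mst1, chr9:108080371-108080398, minus strand: gactctggctCCACACCCcctctctgaa
Itpr3, chr17:27057238-27057265, minus strand: ggcggggaggCCACACCCcaccccgccc
Fgfbp1, chr5:43981840-43981867, plus strand: ctcctcccagCCACACCCctcagggaga
Gsn, chr2:35266591-35266618, minus strand: gtggtaaatgCCACACCCagagcatgtt
The windows of Hspa1b and Hspa1a are the same 28 letters, so these are not separate cases. In Kcnn4, the leading gene below, the box lies 216 bases before the start. Card10 (a signalling scaffold), Itpr3 (a calcium release channel) and Gsn (gelsolin, which severs actin) are among the others. The match is a description of letters, and no binding was measured.

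Markers of other cell types were read in all fractions. Of 16 macrophage and leukocyte markers, 10 were at or below the ceiling in Oct4+Klf4-negative cells and the summed linear level was 366, 199, 940 and 566, lowest here. Cd14, at 4.63, 3.21, 4.85 and 4.69, was the member below, and 0 were above. Of 17 endothelial markers 8 were at or below the ceiling, the summed level was 528, 562, 1111 and 1091, and Flt1, a receptor of vascular endothelial growth factor, was below at 5.44, 3.99, 6.52 and 7.32. Skeletal muscle markers had summed levels of 300.2, 313, 315 and 337, with 0 members. Neural crest and Schwann cell markers summed to 599, 689, 1000.1 and 1628, with Tfap2a below and 0 above. Cartilage and bone markers summed to 337, 595, 312 and 341, highest here, with Col11a1 above and 8 of 20 at or below the ceiling. Of these 20 markers only 5 reached the floor, and 2, Col11a1 and another, were at least 2-fold higher here than in the Oct4-negative array. Most of the rise in the sum over that array came from markers other than Col11a1. The part of such cells in the results was not tested. In all, 49 of the 197 genes above and 30 of the 114 below belonged to any of the 47 lists, so most members lay outside them.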

How the data were processed

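RNA of 4 sorted fractions was read on 1 array each. The values are log2 levels of 45101 probe sets, deposited by the authors after processing with RMA (robust multi-array average), per the submitters' processing notes. Its version was not given in the sources used here. Quantile normalization, which RMA usually includes, makes array totals alike, so an overall change in RNA per cell would not be seen. Per the labels' protocols, RNA came from fixed cells (RecoverAll) and was amplified (Ovation Pico WTA).

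After leaving out 64 controls, 34945 probe sets had 1 gene symbol in the platform annotation, 932 had several and 9160 had none. Of the first, 34741 had their gene identifier in RefSeq GRCm38.p6, which changed 0 symbols. A gene was its brightest probe set by mean, giving 18193 genes. The floor was the median of all values, 4.53, and the size rule a difference of at least 1 from each other array. The background ceiling was 2.94. A single array per fraction allows no test and no p-value.

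The members, the 47 gene lists and the rules were chosen with earlier results of these data known. The text names the 25 leading genes in each direction. Uncharacterized genes, and those with a probe set on the other side by at least 0.5, were left out of these. The text also names every list member past the size rule, the stained factors and the genes at the edge of the rule. Some other list members are named with their values. Promoters span 250 bases before and 50 after a RefSeq start. The counting rule was run on simulated data whose noise was the scatter between probe sets. That noise holds no variation between cultures or sorts, so the run checks the counting and not the members. Python 3.11.15, pandas 2.3.3, numpy 2.4.6 and matplotlib 3.10.9 were used. Alternatives were other floors, sizes, probe set choices and scalings, and, chosen after seeing the data, leaving out each other array.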

Additional observations from a re-analysis of the deposited data

Results flagged for a closer look

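Probe sets without a gene name, which entered no count above, also held signal of this kind. Of 3118 that reached the floor, 82 (2.63%) were 2-fold above every other array in Oct4+Klf4-negative cells and 10 (0.321%) below. Over named genes the shares were 1.72% above and 0.998% below, so the share above was larger here and the share below smaller. The leading ones above had levels of 2.65, 7.67, 2.58 and 1.71 and of 3.83, 8.31, 3.55 and 3.53 in the order of the arrays used in the report, and the smallest difference of the first, 5.02, exceeded the 4.95 of Epha5, the leading named gene. The leading ones below had 10.41, 7.96, 10.83 and 10.56 and 6.79, 4.05, 6.12 and 6.14. Of 564 probe sets with several gene names, 7 (1.24%) were above and 2 (0.355%) below, both smaller shares than over named genes.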

How the results depend on the processing

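No paired analysis was possible because each group has 1 array. The counts of 197 genes above and 114 below became 96 and 43 with a floor at the 75th percentile, 386 and 290 at 1.5-fold, and 60 and 23 at 4-fold, settings that by construction admit fewer or more genes. Against the mean of the 3 other arrays they were 617 and 744, and without the Oct4-negative array 712 and 844, since fewer conditions had to be met. Leaving out the EpCAM-negative array gave 232 and 163, and leaving out the EpCAM+ array 208 and 132. At that higher floor 1 Hox gene and 11 genes of the neural lists were above. Without a floor there were 215 and 126, and other probe set choices and scalings gave 161 to 208 above and 96 to 118 below. Centring each array on its median moved the median difference of all genes from the EpCAM+ array from -0.04 to 0.08. Of 273 values for the 50 leading genes under other floors, probe set choices and scalings, all kept their direction and 272 stayed past 2-fold. Another floor leaves these values unchanged by construction. The 50 genes were also picked for the largest differences and for having no opposing probe set, so this agreement was largely set in advance. Signal near background limits the lower levels, where folds are bounds.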
